A study of Mus musculus with 26 samples.

Results

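The comparison set 4 RNA-Seq libraries of SMYD3 CL5 cells, 2 at 0 h and 2 at 24 h of differentiation, against 4 libraries of Ctrl cells with the same times and numbers. These 8 libraries, taken by their sample labels, were all members of the comparison among the 26 libraries of the series. C2C12 is a line of mouse myoblasts that stops dividing and fuses into myotubes when it is moved from growth medium to differentiation medium. SMYD3 CL5 was labelled as SMYD3 overexpression (pREV-SMYD3 CL5), that is, a sub-clone of C2C12 that carries a retroviral pREV vector with a cDNA of SMYD3 behind HA and Flag tags. Ctrl was labelled as the empty pREV vector in the same line. Sampling at 0 h was of undifferentiated, confluent myoblasts, and sampling at 24 h was after a day in differentiation medium. RNA of all 8 libraries was extracted with TRIzol. SMYD3 CL5 was 1 sub-clone and the vector cells were sub-cloned too, but whether the Ctrl libraries came from 1 sub-clone is not given in the sources used here. A difference that comes with the construct and a difference between clones therefore cannot be told apart, and the p-values measure the spread between these libraries, which may be technical. The species of the SMYD3 cDNA was not given in the sources used here. The other 18 libraries came from C2C12 cells transfected with siRNA, of which 6 received the control siRNA, siCtrl. At each time siCtrl replicate 1 was extracted with TRIzol, and replicates 2 and 3 with the NucleoSpin RNA Kit. The siCtrl test between 0 h and 24 h fitted the extraction method. Levels of siCtrl set beside the 8 libraries were not corrected for it.

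SMYD3 belongs to the SET and MYND domain family of lysine methyltransferases, which modify histones and other proteins. Its relative SMYD1 is made in heart and skeletal muscle and helps myosin to assemble into thick filaments. Skeletal muscle differentiation runs from the factor MyoD, already present in myoblasts, to myogenin, and from there to the genes of the sarcomere, of calcium handling and of cell fusion. Fusion itself needs the membrane proteins myomaker and myomixer.

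Total counts ranged from 21124675 to 67853386 per library, with a median of 41890109, and 0 pairs of libraries held identical values. In a principal component analysis the first component held 51.6% of the variance and separated the lines, with Ctrl between -69.19 and -54.57 and SMYD3 CL5 between 35.5 and 93.44. SMYD3 CL5 replicate 2 at 0 h stood apart on the second component (22.1% of the variance), at 85.03 against -59.78 to 25.26 in the other 7 libraries. The correlation of replicates was 0.949 in SMYD3 CL5 at 0 h, 0.977 in SMYD3 CL5 at 24 h, 0.992 in Ctrl at 0 h and 0.989 in Ctrl at 24 h. Overall counts, and the counts of most lists that it changed, are therefore also given without this library. The share of counts from mitochondrial genes was 1.61% to 3.79% in SMYD3 CL5 and 2.14% to 2.84% in Ctrl.

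The level of Smyd3 itself, on chromosome 1 (GRCm38, 178951960 to 179518041, minus strand), was 19.2 and 16.7 CPM (counts scaled to the size of the library) in Ctrl at 0 h and 17.1 and 18.2 CPM in Ctrl at 24 h. In SMYD3 CL5 it was 16.9 and 27.1 CPM at 0 h and 24.3 and 20.9 CPM at 24 h. The lowest SMYD3 CL5 library lay inside the range of Ctrl and the other 3 lay above it. The means were 17.8 ± 1.14 CPM (SD, n = 4) in Ctrl and 22.3 ± 4.4 CPM (SD, n = 4) in SMYD3 CL5, with a two-sided p of 0.111 in an exact permutation test of the libraries within each time, a test whose 36 relabelings cannot give a p below 0.0556. Over both times the log2 fold change was 0.33 ± 0.18 (SE), with an adjusted p of 0.288 in edgeR's quasi-likelihood test. The gene's total count thus did not check the label. How much of the construct's transcript the alignment caught was not tested, so both lines are named here by their labels. At the protein level, the study reports that it checked the tagged SMYD3 in its clones by western blot and immunofluorescence against HA and FLAG. Of the other family members, Smyd1 rose and is described with the muscle genes. Smyd2 was 41.2 to 48.5 CPM in Ctrl and 29.5 to 40.4 CPM in SMYD3 CL5 (log2 fold change -0.46, adjusted p 0.0746), and Smyd4 had a log2 fold change of -0.22 (adjusted p 0.372).

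Over both times, with the differentiation timepoint as covariate, 1009 of 17835 genes passed an adjusted p of 0.01 (edgeR's quasi-likelihood test with Benjamini-Hochberg adjustment). Of these, 528 were raised in SMYD3 CL5, which is 2.96% of the genes tested, and 481 were lowered, which is 2.7%. The genes that passed were far apart between the lines. Their median size was 2.67 on the log2 scale, the smallest 0.69, and 297 of them differed at least 16-fold. All 4 SMYD3 CL5 libraries lay above all 4 Ctrl libraries for 489 of the 528 raised genes, against 9.43% of all genes tested, and below them for 467 of the 481 lowered genes, against 11.2%. The selection of these genes on the same libraries favours such separation, so it adds no support. The lower group held 0 counts in all 4 libraries for 4 raised and 41 lowered genes. Without SMYD3 CL5 replicate 2 at 0 h, 1766 genes passed, 962 raised and 804 lowered, and 1006 of the 1009 were among them, all with the same sign. Without any 1 of the Ctrl libraries the count was 454 to 524, without SMYD3 CL5 replicate 1 at 24 h it was 615, and without SMYD3 CL5 replicate 2 at 24 h it was 582. Among the genes named below, Acan and Heyl lost the call in 7 of the 8 fits that left out 1 library, and Adamts9, Col4a6, Dok7, Fgfr1, Gbp2, Itgb3, Lif, Lrp4, Mmp10, Myl4, Plk2, Rrm2, Sgcb, Spry4 and Srl lost it in 6, with the adjusted p of none of these 17 above 0.0512 in any fit.

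The difference between the lines was present at 0 h, before differentiation medium. In the fit of the 4 groups 191 genes passed at 0 h, of which 83 were raised (0.465% of genes tested) and 108 lowered (0.606%). At 24 h 172 genes passed, of which 67 were raised (0.376%) and 105 lowered (0.589%). Of the 528 genes raised over both times, 82 also passed at 0 h, 67 at 24 h and 54 at each time, and 433 passed at neither time on its own. Of the 481 lowered genes, 108 passed at 0 h, 103 at 24 h, 87 at each time and 357 at neither. Every one of the 528 raised genes was higher at both times and every one of the 481 lowered genes was lower at both, which the selection over both times favours. These counts at single times moved strongly with 1 library. Without SMYD3 CL5 replicate 2 at 0 h, 483 genes passed at 0 h and 708 at 24 h. Without SMYD3 CL5 replicate 1 at 0 h, 2369 passed at 0 h and 680 at 24 h. Without Ctrl replicate 1 or 2 at 0 h, 1 and 0 genes passed at 0 h, and 46 and 43 at 24 h. Without Ctrl replicate 1 or 2 at 24 h, 54 and 55 passed at 0 h, and 8 and 8 at 24 h. Without SMYD3 CL5 replicate 1 or 2 at 24 h, 87 and 84 passed at 0 h, and 0 and 12 at 24 h.

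**Figure D1:**
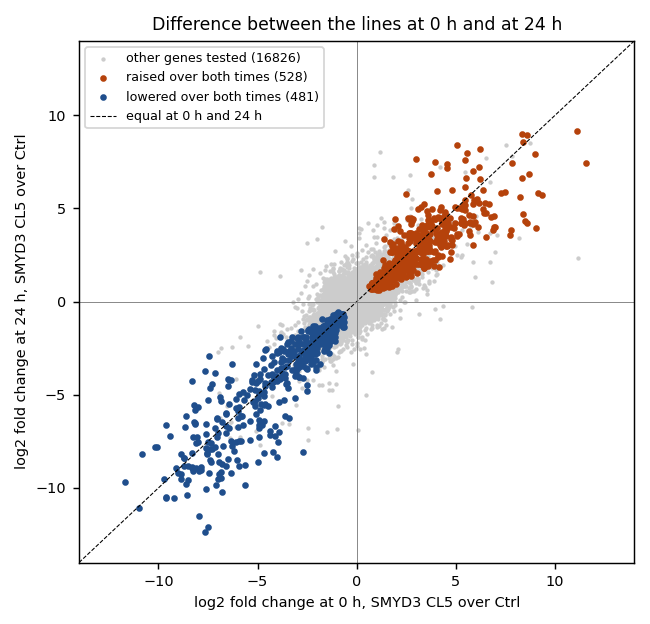
Each point is 1 of the 17835 genes tested, with the log2 fold change of SMYD3 CL5 over Ctrl at 0 h on the horizontal axis and at 24 h on the vertical axis. The 528 raised genes (orange) and the 481 lowered genes (blue) were chosen over both times and lie in the upper right and lower left around the dashed line of equal differences.

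The 24 h libraries on their own gave a choice of genes that used no 0 h library. A fit of those 4 libraries alone called 349 of 17445 genes, of which 167 were raised and 182 lowered. At 0 h all 167 raised genes were higher in SMYD3 CL5, and for 162 of them (97.0%) both SMYD3 CL5 libraries lay above both Ctrl libraries, against 21.4% of all genes tested. All 182 lowered genes were lower at 0 h, and for 180 (98.9%) both SMYD3 CL5 libraries lay below both Ctrl libraries, against 27% of all genes tested. The median log2 fold change of the 167 raised genes was 3.52 at 0 h and 3.68 at 24 h, and that of the 182 lowered genes was -4.69 at 0 h and -5.08 at 24 h. A fit of the 4 libraries of 0 h alone called 0 of 16723 genes, with 2042 at an unadjusted p under 0.05 and a smallest adjusted p of 0.0364, so the calls at 0 h rest on a spread estimated together with the 24 h libraries.

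Whether the difference between the lines changed from 0 h to 24 h was tested as the interaction of line and time. edgeR called 0 of 17835 genes, with 312 at an unadjusted p under 0.05, limma-voom called 0, and DESeq2 called 2, Dpt and H19. Dpt, which encodes the matrix protein dermatopontin, was 1.44 and 1.14 CPM in Ctrl at 0 h and 16.6 and 21.2 CPM at 24 h, while SMYD3 CL5 held 0.429 to 0.763 CPM throughout. The imprinted transcript H19 was 119 and 170 CPM in Ctrl at 0 h and 492 and 328 CPM at 24 h, and in SMYD3 CL5 it was 1271 and 1262 CPM at 0 h and 851 and 726 CPM at 24 h. At 0 h H19 was raised in SMYD3 CL5 (log2 fold change 3.14, adjusted p 0.00384), and at 24 h the value was 0.94 (adjusted p 0.185). Srl, which encodes the sarcoplasmic reticulum protein sarcalumenin, had a log2 fold change of 1.35 at 0 h (adjusted p 0.0294) and 3.34 at 24 h (adjusted p 0.00138), and its difference between times did not pass in edgeR. Rgma, a guidance molecule, had 7.75 and 10.4 CPM in Ctrl at 0 h and 29.0 and 30.0 CPM at 24 h, while SMYD3 CL5 held 14.3 to 15.8 CPM, so the values were 0.69 at 0 h (adjusted p 0.164) and -0.93 at 24 h (adjusted p 0.0798), neither past the threshold.

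Genes of the contractile apparatus made up the lists with the most raised genes. The 5 lists that cover the thick filament, the thin filament, the scaffold with Z-disc and M-band, sarcomere assembly and turnover, and excitation-contraction coupling held 103 genes tested, of which 64 were raised and 1 was lowered, against 2.96% and 2.7% of all genes. The counts of raised genes in these lists without SMYD3 CL5 replicate 2 at 0 h were 12, 15, 15, 13 and 14, and with it 11, 15, 14, 12 and 12. In bulk RNA, more cells that make a transcript and more of it per cell cannot be told apart. The median log2 fold change of the 103 genes was 3.0 (2.85 at 0 h and 2.89 at 24 h), against 0.00 over all genes tested. In the fit of the 4 groups 20 of the 103 were raised at 0 h, against 0.465% of all genes tested, and 21 at 24 h, against 0.376%. For 75 of the 103 both SMYD3 CL5 libraries at 0 h lay above both Ctrl libraries, against 21.4% of all genes tested.

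Among 20 transcription factors and coactivators that drive myogenesis, 2 were raised, Myog and Myod1, and 0 lowered (median log2 fold change 0.17). The count was 4 of 21 raised without SMYD3 CL5 replicate 2 at 0 h. For this list and the 2 below, the shares over all genes tested were 2.96% raised and 2.7% lowered. Myog encodes myogenin and lies on chromosome 1 (GRCm38, 134289989 to 134292548, plus strand). It was 0.282 and 0.535 CPM in Ctrl at 0 h, 7.27 and 7.03 CPM in Ctrl at 24 h, 15.9 and 81.9 CPM in SMYD3 CL5 at 0 h and 123 and 78.8 CPM in SMYD3 CL5 at 24 h. Both SMYD3 CL5 libraries at 0 h lay above the Ctrl libraries of 24 h. The log2 fold change was 5.08 ± 0.78 over both times (adjusted p 0.00348), 6.86 at 0 h (adjusted p 0.00885) and 3.82 at 24 h (adjusted p 0.0376). In the 8 fits that left out 1 library each, the adjusted p over both times for Myog was 1.82e-05 to 0.0196, highest without Ctrl replicate 2 at 0 h, and it missed the threshold in 5 of them. Myod1, which encodes MyoD, was 14.6 to 35.1 CPM in Ctrl and 55.8 to 109.8 CPM in SMYD3 CL5, with no overlap (log2 fold change 1.63 ± 0.24, adjusted p 0.00278, up to 0.0127 without Ctrl replicate 2 at 0 h). Of 14 inhibitors of myogenesis 1 was raised, Heyl, a target of Notch signalling (log2 fold change 2.91, adjusted p 0.00932, up to 0.0512 without Ctrl replicate 2 at 0 h), and 0 were lowered. Leaving out SMYD3 CL5 replicate 2 at 0 h gave 1 of 15 inhibitors raised and 2 lowered. Of the 5 SMYD genes only Smyd1 was raised and none lowered (1 lowered without SMYD3 CL5 replicate 2 at 0 h). It went from 0.502 and 0.633 CPM in Ctrl to 19.5 and 18.2 CPM in SMYD3 CL5 at 0 h, and from 2.73 and 1.63 to 34.7 and 19.4 CPM at 24 h. It passed at both times (log2 fold change 4.27 ± 0.38, adjusted p 0.000202, 5.04 at 0 h and 3.64 at 24 h).

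The 300 bases around the starts of 4 raised muscle genes are shown because these genes moved together, beside those of 2 lowered genes for contrast. The sequences are RefSeq's (GRCm38.p6) and run from 250 bases before to 50 bases after the RefSeq start. Capitals mark E-boxes (CANNTG, the kind of site that MyoD and myogenin bind), and exact matches to a CArG box (CCWWWWWWGG) and a MEF2 box (YTAWWWWTAR), searched on both strands. W stands for A or T, Y for C or T and R for A or G. A near match, such as ctatatttat in the Myog window, was not marked or counted.
Myog promoter, chr1:134289754-134290053, plus strand: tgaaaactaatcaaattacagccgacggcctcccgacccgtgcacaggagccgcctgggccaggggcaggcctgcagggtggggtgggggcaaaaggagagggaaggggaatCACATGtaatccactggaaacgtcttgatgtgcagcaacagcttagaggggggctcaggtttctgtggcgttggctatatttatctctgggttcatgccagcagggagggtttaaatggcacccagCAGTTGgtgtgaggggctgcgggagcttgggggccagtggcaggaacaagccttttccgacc
Mylpf promoter, chr7:127211358-127211657, plus strand: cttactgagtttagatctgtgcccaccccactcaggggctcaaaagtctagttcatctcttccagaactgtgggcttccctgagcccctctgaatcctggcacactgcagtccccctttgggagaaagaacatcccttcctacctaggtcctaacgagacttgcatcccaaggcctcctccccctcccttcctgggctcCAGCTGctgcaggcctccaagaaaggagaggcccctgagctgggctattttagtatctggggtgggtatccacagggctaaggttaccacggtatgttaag
Acta1 promoter, chr8:123894726-123895025, minus strand: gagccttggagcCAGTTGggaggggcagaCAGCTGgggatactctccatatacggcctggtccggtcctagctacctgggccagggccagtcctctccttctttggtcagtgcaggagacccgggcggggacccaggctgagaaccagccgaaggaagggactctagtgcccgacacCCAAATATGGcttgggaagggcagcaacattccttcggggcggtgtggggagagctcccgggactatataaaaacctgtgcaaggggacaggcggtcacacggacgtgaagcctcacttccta
Ckm promoter, chr7:19410844-19411143, plus strand: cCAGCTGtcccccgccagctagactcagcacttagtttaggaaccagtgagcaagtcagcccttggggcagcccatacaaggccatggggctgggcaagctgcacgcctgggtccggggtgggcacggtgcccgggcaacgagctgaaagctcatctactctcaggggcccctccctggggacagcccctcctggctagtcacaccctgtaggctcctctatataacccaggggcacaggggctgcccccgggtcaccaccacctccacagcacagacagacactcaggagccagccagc
Serpine2 promoter, chr1:79858616-79858915, minus strand: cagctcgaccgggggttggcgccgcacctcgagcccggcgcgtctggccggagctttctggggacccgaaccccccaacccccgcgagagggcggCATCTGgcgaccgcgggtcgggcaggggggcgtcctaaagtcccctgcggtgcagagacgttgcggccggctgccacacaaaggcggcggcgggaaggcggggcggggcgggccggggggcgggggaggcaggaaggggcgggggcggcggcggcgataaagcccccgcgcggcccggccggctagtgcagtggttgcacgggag
Epha7 promoter, chr4:28812881-28813180, plus strand: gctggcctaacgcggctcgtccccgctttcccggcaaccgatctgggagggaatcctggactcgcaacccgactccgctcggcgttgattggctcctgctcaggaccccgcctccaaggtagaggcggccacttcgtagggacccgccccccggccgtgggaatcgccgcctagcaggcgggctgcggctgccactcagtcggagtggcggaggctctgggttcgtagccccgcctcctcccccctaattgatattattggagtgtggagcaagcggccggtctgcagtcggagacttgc

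Such a window was at hand for 11144 of the 17835 genes tested and for 49 of the 64 raised genes of the 5 contractile lists. The E-box CAGCTG, a subset of CANNTG, was in 20 of these 49 windows (40.8%), against 15.3% of all windows, and CANNTG in 83.7% against 63.6%. A MEF2 box was in 16.3% against 1.84%, a CArG box in 10.2% against 1.46%, and the letters TATAAA in 26.5% against 7.64%. The 49 windows held few CpG dinucleotides, with a median of 6 against 20 over all windows. The 316 windows of raised genes outside these lists lay between, with CAGCTG in 18.4%, CANNTG in 68.7%, a MEF2 box in 4.11%, TATAAA in 13.0% and a median of 9 CpG, except for the CArG box, at 0.633%. The windows of the 345 lowered genes that had one held CANNTG in 64.3%, a MEF2 box in 2.03% and a median of 18 CpG. In these they were closer to the background than the 316. With CAGCTG in 19.4% they were not. Among the sequences above, Serpine2 held 41 CpG and Epha7 28, while Mylpf held 2, Ckm 7, Myog 9 and Acta1 12. These counts describe letters in a window, and binding was not measured.

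Of 17 thick filament genes 11 were raised and 0 lowered (median log2 fold change 4.43). Mylpf, the fast skeletal regulatory light chain of myosin, was 1.13 and 1.92 CPM in Ctrl at 0 h, 15.98 and 19.64 CPM in Ctrl at 24 h, 52.8 and 233 CPM in SMYD3 CL5 at 0 h and 409 and 565 CPM in SMYD3 CL5 at 24 h. All 4 SMYD3 CL5 libraries lay above Ctrl, which the rule for the largest rises asked for (log2 fold change 5.60 ± 0.61, adjusted p 0.00061). Mybpc1, the slow myosin-binding protein C, held 1 count in all over the 4 Ctrl libraries and 1.14 to 3.50 CPM in SMYD3 CL5, a ratio of 382 with a 95% counting interval of 68.1 to 15100. The slow and beta-cardiac myosin heavy chain Myh7 rose from at most 0.073 CPM in Ctrl to 3.33 and 3.48 CPM at 0 h and 6.73 and 3.82 CPM at 24 h (log2 fold change 6.67 ± 0.52, adjusted p 0.000109). The embryonic heavy chain Myh3 overlapped between the lines over both times, with 0.0942 and 0.535 CPM in Ctrl at 0 h, 3.83 and 6.75 CPM in Ctrl at 24 h, 3.41 and 10.9 CPM in SMYD3 CL5 at 0 h and 157 and 106 CPM at 24 h. It was separated within each time and passed over both (log2 fold change 4.55 ± 0.50, adjusted p 0.000667). Myl6b rose by a log2 fold change of 1.84 (adjusted p 0.000642) and the atrial light chain Myl4 by 2.998 (adjusted p 0.00879, up to 0.0391 without Ctrl replicate 1 at 24 h). Myl4 was 0.848 to 2.75 CPM in Ctrl and 1.94 to 36.5 CPM in SMYD3 CL5, so the lines overlapped.

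Of 24 thin filament genes 15 were raised and 0 lowered (median log2 fold change 3.06). Acta1, skeletal alpha-actin, was 1.66 and 3.26 CPM in Ctrl at 0 h, 12.9 and 14.6 CPM in Ctrl at 24 h, 39.6 and 251 CPM in SMYD3 CL5 at 0 h and 485 and 570 CPM at 24 h. Every SMYD3 CL5 library lay above every Ctrl library, again as the rule for the largest rises asked (log2 fold change 5.56 ± 0.58, adjusted p 0.000544). Tnnc1, the slow and cardiac troponin C, was 3.77 to 8.80 CPM in Ctrl and 12.6 and 130 CPM in SMYD3 CL5 at 0 h, and 136 and 188 CPM at 24 h, so that its 2 replicates at 0 h lay far apart (log2 fold change 4.31 ± 0.65, adjusted p 0.00321, up to 0.0167 without Ctrl replicate 2 at 0 h). Xirp1 and Nrap, which bind actin at myotendinous and growing sarcomeres, rose by 2.44 and 2.88 on the log2 scale (adjusted p 0.000108 for each) and passed at both times.

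**Figure D2:**
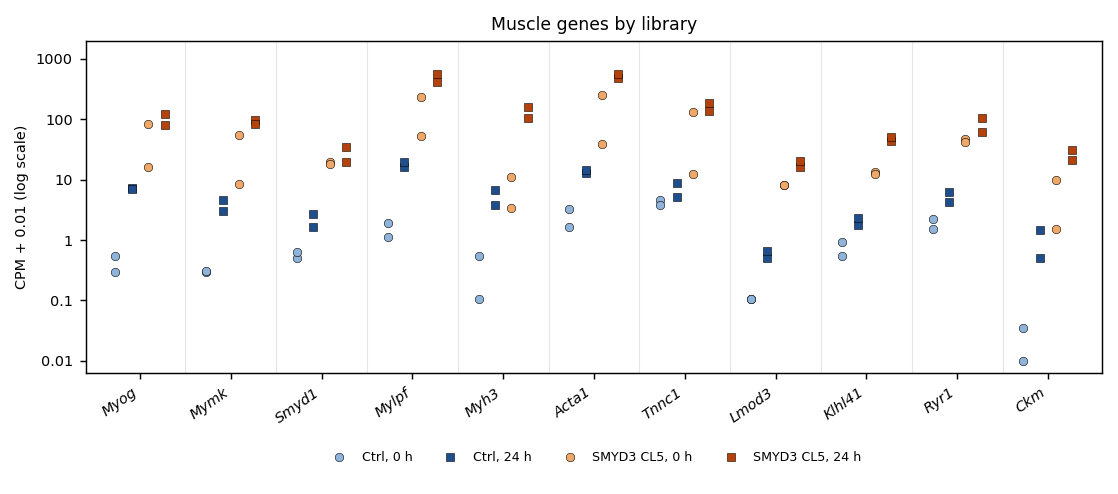
Points give the level of 11 muscle genes in each of the 8 libraries, as CPM plus 0.01 on a log axis, with Ctrl in blue, SMYD3 CL5 in orange, circles for 0 h and squares for 24 h. For Myog, for example, both SMYD3 CL5 libraries at 0 h (15.9 and 81.9 CPM) lie above both Ctrl libraries at 24 h (7.27 and 7.03 CPM).

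Of 25 genes of the scaffold, Z-disc and M-band 14 were raised and 0 lowered (median log2 fold change 2.25). The M-band genes Myom1 and Myom3 rose by 3.28 (adjusted p 2.29e-05) and 5.23 (adjusted p 0.000221), and both passed at each time. Myom1 was 1.29 and 1.41 CPM in Ctrl at 0 h and 2.53 and 2.85 CPM at 24 h, against 16.1 and 12.3 CPM and 26.6 and 22.1 CPM in SMYD3 CL5. Outside the lists, Igfn1, whose protein sits at the Z-disc, was among the genes with the largest rise, from 0 to 0.0665 CPM in Ctrl to 21.7 to 47.5 CPM in SMYD3 CL5 (log2 fold change 9.81 ± 0.50, adjusted p 2.08e-05). Of 15 genes of sarcomere assembly and turnover 12 were raised and 0 lowered (median 3.92). Klhl41, a kelch protein that stabilises thin filament proteins, was tight among replicates, at 0.534 and 0.900 CPM against 13.2 and 12.4 CPM at 0 h and at 1.80 and 2.33 against 43.0 and 51.0 CPM at 24 h (log2 fold change 4.34 ± 0.22, adjusted p 2.08e-05). The leiomodins nucleate actin filaments. Lmod3 was 0.0942 to 0.660 CPM in Ctrl and 8.08 to 20.03 CPM in SMYD3 CL5 (log2 fold change 5.44, adjusted p 3.03e-05), and Lmod2 had no count in Ctrl at 0 h, against 0.833 and 2.46 CPM in SMYD3 CL5. Trim54, a ring finger protein of the microtubules and Z-disc, rose by 4.59 (adjusted p 0.0001) and the kinase gene Srpk3 by 4.24 (adjusted p 0.000211).

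Of 22 genes of excitation-contraction coupling 12 were raised and 1 lowered (median log2 fold change 2.27), and the lowered one was the isoform of a raised one. Ryr1, the calcium release channel of skeletal muscle, was 2.20 and 1.48 CPM in Ctrl at 0 h, 6.32 and 4.22 CPM in Ctrl at 24 h, 47.2 and 41.8 CPM in SMYD3 CL5 at 0 h and 106 and 62.5 CPM at 24 h (log2 fold change 4.29 ± 0.28, adjusted p 4.51e-05). Ryr3, the other ryanodine receptor found in muscle, went from 15.8 to 28.8 CPM in Ctrl to 0.615 to 0.994 CPM in SMYD3 CL5 (log2 fold change -4.57 ± 0.24, adjusted p 2.08e-05). Neither gene's groups overlapped, and both passed at each time. Trdn (triadin), Hrc and Stac3, which tether or fill the calcium release unit, rose by 4.55 (adjusted p 0.000116), 4.59 (adjusted p 8.88e-05) and 3.09 (adjusted p 7.54e-05). Cacna1s, the voltage sensor, was at most 0.288 CPM in Ctrl and 2.40 to 12.8 CPM in SMYD3 CL5 (log2 fold change 6.23, adjusted p 0.000505). Trim72, a membrane repair protein of muscle, rose by 5.55 (adjusted p 0.000294). The calcium pump gene Atp2a1 overlapped across the times, with 1.10 to 5.28 CPM in Ctrl and 5.22 to 48.6 CPM in SMYD3 CL5 (log2 fold change 3.48, adjusted p 0.00137).

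Of 15 fusion genes 3 were raised and 1 lowered (median log2 fold change 0.35). Mymk, which encodes myomaker, was 0.282 and 0.292 CPM in Ctrl at 0 h, 3.06 and 4.66 CPM in Ctrl at 24 h, 8.30 and 54.9 CPM in SMYD3 CL5 at 0 h and 98.6 and 82.6 CPM at 24 h (log2 fold change 5.40 ± 0.70, adjusted p 0.0016). The other fusogen, Mymx, rose by 4.76 (adjusted p 0.00329, up to 0.0175 without Ctrl replicate 2 at 0 h), although its SMYD3 CL5 libraries at 0 h, 1.44 and 16.03 CPM, differed widely and overlapped with the 1.66 and 1.84 CPM of Ctrl at 24 h. Tmem182 rose by 3.01 (adjusted p 0.00344), and the adhesion gene Jam2 fell by 1.42 (adjusted p 0.00127). There were 4 fusion genes raised and 2 lowered without SMYD3 CL5 replicate 2 at 0 h. Of 13 postsynaptic genes 3 were raised, Dok7, Lrp4 and Chrng, by 1.70 to 2.57 on the log2 scale, and 0 lowered. In the dystrophin complex 4 of 16 were raised, and 0 lowered, or 6 of 17 raised without SMYD3 CL5 replicate 2 at 0 h. Among them were the sarcoglycan gene Sgca, the laminin gene Lama2 and Sgcb, at log2 fold changes of 3.24, 2.88 and 0.92 (adjusted p 0.00257, 0.00278 and 0.00561). Of 21 genes of muscle metabolism 5 were raised and 0 lowered. Ckm, muscle creatine kinase, was 0 and 0.0243 CPM in Ctrl at 0 h, 0.488 and 1.44 CPM in Ctrl at 24 h, 1.49 and 9.73 CPM in SMYD3 CL5 at 0 h and 20.9 and 30.6 CPM at 24 h (log2 fold change 5.41 ± 0.82, adjusted p 0.00331, up to 0.0165 without Ctrl replicate 1 at 24 h). Mb (myoglobin) was at most 0.0665 CPM in Ctrl and 1.08 to 16.9 CPM in SMYD3 CL5 (log2 fold change 8.15 ± 1.07, adjusted p 0.00162). Art1 held 1 count in all in Ctrl (ratio 187, 95% counting interval 33.1 to 7440), Hfe2 rose by 4.83 (adjusted p 0.00288), and the lactate dehydrogenase gene Ldhb by 1.46 (adjusted p 0.00193).

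**Figure D3:**
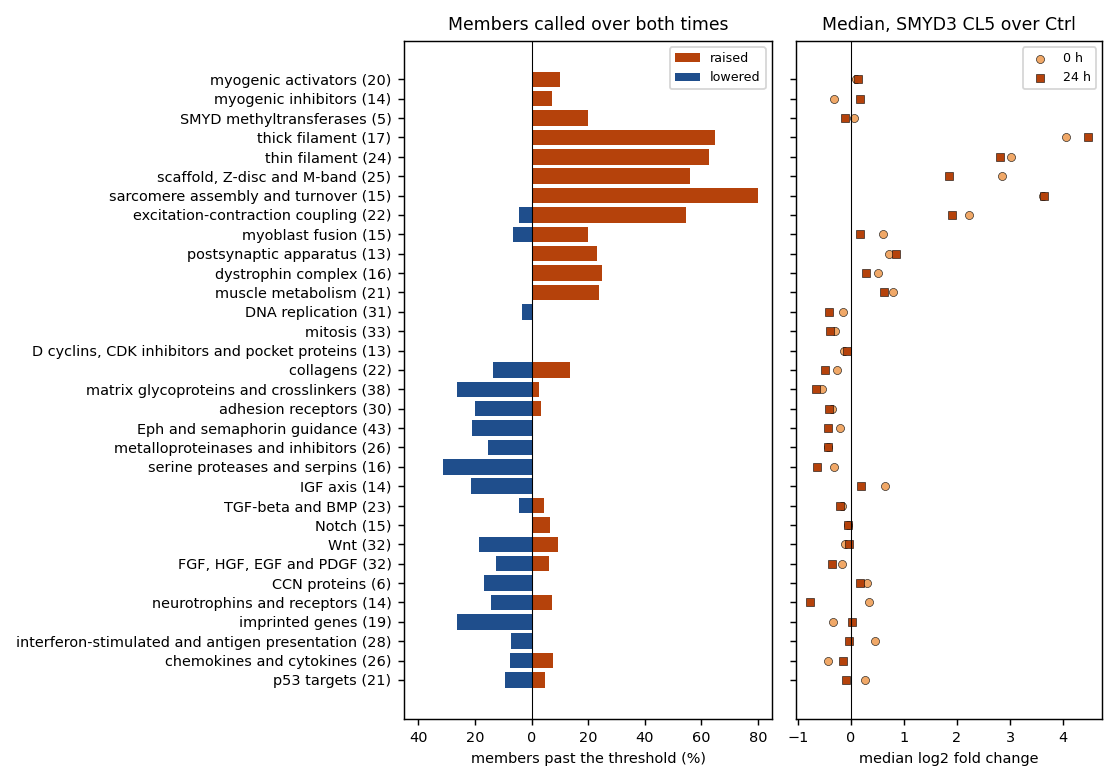
For each list, with the number of genes tested in brackets, the left panel gives the percentage of genes raised (orange, to the right) and lowered (blue, to the left) over both times, and the right panel the median log2 fold change of SMYD3 CL5 over Ctrl at 0 h (circle) and 24 h (square). The 5 contractile lists have medians from 2.23 to 4.06 at 0 h and from 1.84 to 4.48 at 24 h. The lists of matrix, adhesion, guidance and protease genes have more genes lowered than raised.

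On the lowered side, several genes went from plain expression in Ctrl to a few counts in SMYD3 CL5, at both times. Gtpbp10, which encodes a GTPase of mitochondrial ribosome assembly (chromosome 5, GRCm38, 5537454 to 5559538, minus strand), was 11.3 and 12.3 CPM in Ctrl at 0 h and 9.93 and 9.85 CPM at 24 h, and 0.0178 to 0.0461 CPM in SMYD3 CL5. It had the smallest p of all genes named (log2 fold change -8.56 ± 0.31, adjusted p 3.64e-06). S1pr3, a receptor for sphingosine-1-phosphate, was 12.4 to 18.5 CPM in Ctrl and 0.0256 to 0.0921 CPM in SMYD3 CL5 (log2 fold change -8.22 ± 0.34, adjusted p 8.38e-06). The X-linked AA414768 was 5.40 to 7.20 CPM in Ctrl and had no count in SMYD3 CL5, which makes it at least 319-fold lower, with 3 counts over the group as the floor. Counts of 1 to 3 in all over the SMYD3 CL5 libraries left wide intervals for others. Setbp1 was 1810 times higher in Ctrl (95% counting interval 325 to 71500), Asb13 753 times (135 to 29800), Prrg1 474 times (162 to 2300) and the cadherin gene Cdh26 514 times (142 to 4250). Tiam1, an activator of the GTPase Rac, and the scavenger receptor gene Colec12 had log2 fold changes of -8.53 (adjusted p 2.29e-05) and -9.03 (adjusted p 0.000155). Such intervals and bounds take in counting error alone.

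**Figure D4:**
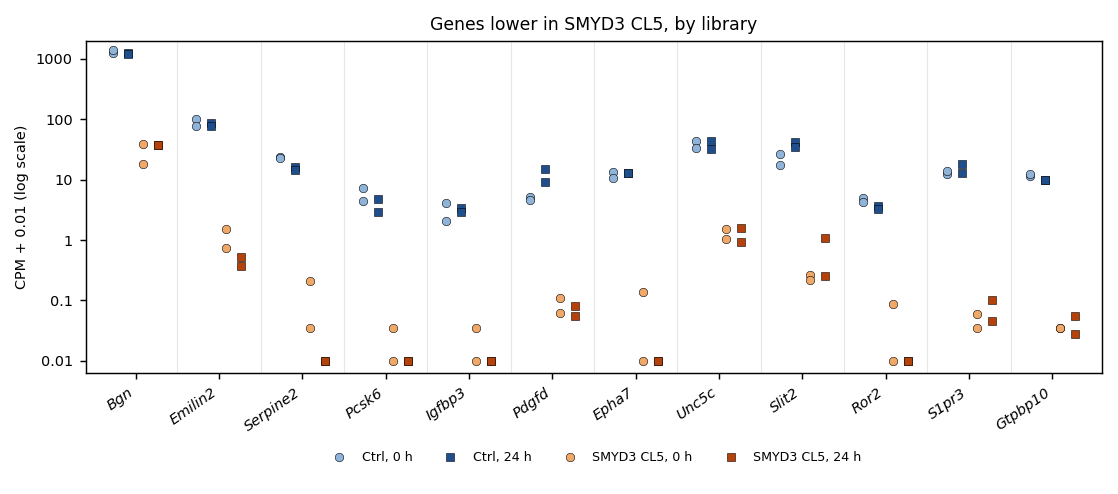
Points give the level of 12 lowered genes in each of the 8 libraries, as CPM plus 0.01 on a log axis, with Ctrl in blue, SMYD3 CL5 in orange, circles for 0 h and squares for 24 h; a point at 0.01 is a library with no count. All 4 SMYD3 CL5 libraries lie below all 4 Ctrl libraries for each gene shown, at both times. For Gtpbp10, S1pr3, Serpine2, Pcsk6 and Epha7, named among the largest falls, the naming rule asked for no overlap.

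Of 38 matrix glycoproteins and crosslinkers 10 were lowered and 1 raised (median log2 fold change -0.63), or 14 and 3 without SMYD3 CL5 replicate 2 at 0 h. Bgn, the proteoglycan biglycan, was 1227 and 1397 CPM in Ctrl at 0 h and 1227 and 1182 CPM at 24 h, and 18.4 and 38.2 CPM in SMYD3 CL5 at 0 h and 37.0 and 37.9 CPM at 24 h (log2 fold change -5.27 ± 0.29, adjusted p 2.29e-05). Emilin2, an elastin microfibril protein, went from 77.2 to 100.9 CPM in Ctrl to 0.368 to 1.49 CPM (log2 fold change -6.84 ± 0.36, adjusted p 2.08e-05). Versican (Vcan) and Thbs3 were lowered, with log2 fold changes of -2.67 (adjusted p 0.00302) and -1.25 (adjusted p 0.00288), while the matrix Gla protein gene Mgp rose from 95.7 to 350 CPM in Ctrl to 445 to 1420 CPM (log2 fold change 2.23, adjusted p 0.000577). Collagens went both ways. Of 22 chains tested, Col1a1, Col3a1 and Col14a1 were lowered, and Col6a1, Col6a2 and Col4a6 were raised. Col1a1 was 186 to 570 CPM in Ctrl and 9.29 to 37.2 CPM in SMYD3 CL5 (log2 fold change -4.48 ± 0.57, adjusted p 0.00148). Col6a2 was 164 to 275 CPM in Ctrl and 566 to 704 CPM in SMYD3 CL5 (log2 fold change 1.61 ± 0.19, adjusted p 0.000868), and it lies on chromosome 10 like Col6a1.

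Of 30 adhesion receptors 6 were lowered and 1 raised, and without SMYD3 CL5 replicate 2 at 0 h 8 of 33 were lowered and 3 raised. Cdh11, Alcam, Itga6 and Itgb3 were lowered, with log2 fold changes of -6.05, -1.69, -1.94 and -1.35 (adjusted p 0.00137, 0.000505, 0.0018 and 0.0039). The collagen-binding integrin Itga11 rose, from 0.414 to 3.79 CPM in Ctrl to 16.2 to 57.6 CPM (log2 fold change 4.71, adjusted p 0.000482). Of 43 guidance genes, which steer growing axons and migrating cells, 9 were lowered and 0 raised (median -0.31). The ephrin receptor gene Epha7 was 10.5 to 13.5 CPM in Ctrl and 0.126, 0, 0 and 0 CPM in SMYD3 CL5 (log2 fold change -8.50 ± 0.69, adjusted p 0.000124). The netrin receptor gene Unc5c was 32.4 to 43.4 CPM in Ctrl and 0.923 to 1.57 CPM in SMYD3 CL5 (log2 fold change -4.95 ± 0.25, adjusted p 2.08e-05). The ligand Slit2 and its receptor Robo2 were both lowered, at -6.29 (adjusted p 6.19e-05) and -6.24 (adjusted p 0.00119).

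Of 16 serine proteases and serpins 5 were lowered and 0 raised. Serpine2, the inhibitor protease nexin-1, was 23.5 and 23.0 CPM in Ctrl at 0 h and 16.2 and 14.5 CPM at 24 h, and 0.202, 0.0256, 0 and 0 CPM in SMYD3 CL5 (log2 fold change -8.41 ± 0.60, adjusted p 7.16e-05). The inhibitors Slpi, Serpinb2 and Serpinb9b were lowered, at -2.84, -2.34 and -3.05 (adjusted p 0.000563, 0.00136 and 0.00265). The proprotein convertase gene Pcsk6 held 1 count in all in SMYD3 CL5 (ratio 757, 95% counting interval 135 to 29900). Of 26 metalloproteinases and inhibitors 4 were lowered and 0 raised, or 6 of 27 lowered without SMYD3 CL5 replicate 2 at 0 h. Adamts9 had no count in SMYD3 CL5 and was at least 26.8-fold lower, and Adamts12, Adam12 and Mmp10 were at -2.31, -1.35 and -2.22 (adjusted p 0.00237, 0.00544 and 0.00982).

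Of 32 Wnt genes 3 were raised and 6 lowered. For these signalling lists the shares over all genes tested were 2.96% raised and 2.7% lowered. The R-spondins, which amplify Wnt signals, went in opposite directions, Rspo2 up by 3.83 (adjusted p 0.000109) and Rspo3 from 0.732 to 2.73 CPM in Ctrl to 1 count in all (ratio 273, 95% counting interval 48.6 to 10800). Dkk2, a Wnt antagonist, was 21.4 and 28.2 CPM in Ctrl at 0 h and 73.9 and 74.0 CPM at 24 h, against 2.90 and 2.97 CPM and 7.69 and 6.77 CPM in SMYD3 CL5, so that it was higher at 24 h than at 0 h in both lines (log2 fold change -3.22 ± 0.16, adjusted p 2.08e-05). Dkk3 was at -5.48 (adjusted p 0.000117), the receptor Ror2 held 3 counts in all in SMYD3 CL5 (ratio 202, 95% counting interval 69.0 to 984), and Sfrp2 and Lef1 rose by 3.20 and 1.33 (adjusted p 0.000777 and 0.0043). Of 14 genes of the IGF axis 3 were lowered, the binding proteins Igfbp3 (1 count in all in SMYD3 CL5, ratio 471, interval 84.2 to 18600) and Igfbp4 (-3.27, adjusted p 0.000124) and the receptor Igf2r (-1.78, adjusted p 0.00381). Of 23 TGF-beta and BMP genes 1 passed in each direction, close to the shares over all genes. Fst, the inhibitor follistatin, was raised (3.61, adjusted p 0.000628) and the coreceptor Tgfbr3 lowered (-4.87, adjusted p 5.07e-05). Without SMYD3 CL5 replicate 2 at 0 h the IGF list had 3 genes raised and 4 lowered, the TGF-beta and BMP list 1 and 5, the Wnt list 5 and 7, and the list of FGF, HGF, EGF and PDGF 3 and 6. In the list of FGF, HGF, EGF and PDGF, 2 of 32 were raised, Fgf21 (5.07, adjusted p 0.000544) and Spry1 (3.12, adjusted p 0.000485), and 4 lowered, Pdgfd (-6.75, adjusted p 3.6e-05), Egfr (-2.23, adjusted p 0.000482), Spry4 (-1.67, adjusted p 0.00558, up to 0.0279 without Ctrl replicate 1 at 0 h) and Fgfr1 (-0.98, adjusted p 0.0068, up to 0.0411 without the same library).

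Smaller groups held the genes below past the threshold, where over all genes tested 2.96% were raised and 2.7% lowered. The median log2 fold changes of these groups lay between -0.19 and 0.43. Of 14 neurotrophins and receptors Lif was raised (1.13, adjusted p 0.00333), and Gfra2 (-5.27, adjusted p 0.000123) and Ngfr (-2.59, adjusted p 0.000848) were lowered. Of 6 CCN proteins, matrix signals, Ccn3 was lowered (-6.73, adjusted p 0.000117). Of 15 Notch genes 1 was raised, the Heyl described above. Of 19 imprinted genes 5 were lowered and 0 raised, among them Ndn with no count in SMYD3 CL5 (at least 104-fold lower), Plagl1 (-4.40, adjusted p 0.00115) and Peg10 (-1.44, adjusted p 0.00255). Among 26 chemokines and cytokines Cxcl12 and Il34 were raised (2.96, adjusted p 0.00209, and 1.08, adjusted p 0.00368), and Ackr3 and Il1rl1 lowered (-1.51, adjusted p 0.0016, and -4.12, adjusted p 0.00392). Of 28 interferon and antigen presentation genes Gbp2 and Gbp3 were lowered (-1.36, adjusted p 0.00693, and -2.49, adjusted p 0.00244). Of 21 p53 targets Fas was raised (2.01, adjusted p 0.000172), and Plk2 (-1.11, adjusted p 0.00437) and Perp (ratio 55.6, 95% counting interval 15.1 to 464) lowered. The counts raised and lowered in these groups without SMYD3 CL5 replicate 2 at 0 h were 2 and 6 of 19 imprinted genes, 2 and 2 of 30 interferon and antigen presentation genes, 2 and 2 of 14 neurotrophins and receptors, 2 and 3 of 21 p53 targets and 1 and 1 of 16 Notch genes.

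Cell cycle genes were lower by small amounts that mostly did not pass. Of 31 DNA replication genes 29 were lower in SMYD3 CL5 (median log2 fold change -0.33), and 1 was lowered past the threshold, the ribonucleotide reductase subunit Rrm2 (-0.85, adjusted p 0.00457, up to 0.0336 without Ctrl replicate 1 at 0 h). Rrm2 was lower at 24 h than at 0 h in both lines, with 296 and 308 CPM against 157 and 157 CPM in Ctrl and 150 and 175 CPM against 97.6 and 81.9 CPM in SMYD3 CL5. Of 33 mitosis genes 31 were lower, with a median of -0.34, and 0 passed. The lowest p among them were those of Anln (-0.94, adjusted p 0.0228) and Ccnb1 (-0.78, adjusted p 0.0244). Of 13 D cyclins, CDK inhibitors and pocket proteins 0 passed, with Cdkn1c at 1.90 (adjusted p 0.0399) and Ccnd2 at -0.72 (adjusted p 0.0751). The summed level of the replication list was 3049 and 3357 CPM in Ctrl at 0 h, and 1805 and 3245 CPM in SMYD3 CL5 at 0 h, so the replicate that stood apart lay with Ctrl here. Without it 9 of 31 replication genes and 3 of 33 mitosis genes were lowered and 0 raised.

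Markers of other cell types were measured beside these groups. Of 8 fibroblast markers 2 were lowered (4 without SMYD3 CL5 replicate 2 at 0 h), and their summed level was 4007 to 9292 CPM in Ctrl and 1591 to 2582 CPM in SMYD3 CL5. The summed neuronal list was 383.5 to 500.3 CPM in Ctrl and 128.3 to 275.1 CPM in SMYD3 CL5, with Stmn2 lowered (-3.41, adjusted p 0.000117) and 3 of 7 lowered without SMYD3 CL5 replicate 2 at 0 h. The smooth muscle list was 1610 to 2502 CPM in Ctrl and 2636 to 4855 CPM in SMYD3 CL5, with Synpo2, Casq2 and Mylk raised (2.01, 3.57 and 2.65, with adjusted p 0.000456, 0.00171 and 0.00201), and Cnn1, calponin, the more particular marker of smooth muscle, lowered (-2.48, adjusted p 0.00282), or 3 raised and 2 lowered without SMYD3 CL5 replicate 2 at 0 h. Of 5 cardiac markers 3 were raised and 0 lowered past the threshold. The raised ones were Nkx2-5 (2.60, adjusted p 0.000465), Tnni3 (3.25, adjusted p 0.00314) and Myh6 (3 counts in all in Ctrl, ratio 40.9, interval 13.6 to 202). The rest of the cardiac list was not higher in SMYD3 CL5, and 1 gene had all 4 SMYD3 CL5 libraries below all 4 Ctrl libraries. Summed cardiac levels were 30.5 to 34.9 CPM in Ctrl and 37.5 to 58.9 CPM in SMYD3 CL5. Of 4 adipocyte markers (62.6 to 120.3 CPM in Ctrl, 48.7 to 122.3 CPM in SMYD3 CL5) 2 were higher and 1 passed, Cebpa (1.08, adjusted p 0.00236). Of 7 osteochondral markers (163.7 to 175.9 and 75.1 to 179.1 CPM) 2 were higher. Acan, on that list, had no count in SMYD3 CL5 and was at least 19.7-fold lower. The endothelial list summed to at most 1.63 CPM and the blood list to at most 3.51 CPM in any of the 8 libraries. Of 7 markers of myoblast identity 2 were raised, the Myod1 and Myog described above, and 0 lowered. The part of other cell types in the results was not tested.

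Genes raised in SMYD3 CL5 were often genes that rise when C2C12 cells differentiate. In the 6 siCtrl libraries, which took no part in the comparison, 396 of the 528 raised genes were tested between 0 h and 24 h, and 199 of them (50.3%) rose and 10 (2.53%) fell. Over all 15598 genes tested there, 14.5% rose and 15.0% fell. For the lowered genes the shares lay near that background, with 69 (15.6%) of 441 rising and 73 (16.6%) falling. Of the 64 raised contractile genes 56 were tested in siCtrl and 54 rose there. The mean level over the 6 siCtrl libraries of both times was nearer to Ctrl than to SMYD3 CL5 for 437 of 517 raised genes. The same held for 374 of 474 lowered genes. Nearness was not counted over all genes tested, so these counts have no background to be read against. For the 64 raised contractile genes, summed in the scaling of 26 libraries, the line nearer to siCtrl differed by time. At 0 h the sum was 168.7 to 497.6 CPM in siCtrl, 193.7 to 219.1 CPM in Ctrl and 1284 to 2061 CPM in SMYD3 CL5. At 24 h it was 1814 to 4525 CPM in siCtrl, 405.6 to 464.0 CPM in Ctrl and 3735 to 3780 CPM in SMYD3 CL5.

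Calls were not spread evenly over the genome. Of 882 genes tested on chromosome 10, 86 (9.75%) were raised, against 2.96% of all genes, and 24 (2.72%) were lowered, against 2.7%. Of the 586 genes of chromosome 10 with at least 100 counts on average, 86.9% were higher in SMYD3 CL5 (median log2 fold change 0.52) (0.55 at 0 h and 0.46 at 24 h). In single libraries, measured against the mean of Ctrl, the median was 0.46, 0.44, 0.47 and 0.52 in SMYD3 CL5 and -0.06 to 0.05 in Ctrl. All 15 windows of about 40 such genes had a median above 0, from 0.31 to 0.74, and of the 280 windows on other chromosomes, which ranged from -0.51 to 0.35, 1 exceeded 0.31. In 13 of the 15 windows all 4 SMYD3 CL5 libraries lay above 0, and SMYD3 CL5 replicate 2 at 0 h ranged most widely between windows, from -0.21 to 1.15. Against the same mean of Ctrl, in the scaling of 26 libraries, siCtrl lay between -0.30 and 0.02 on chromosome 10. The largest median falls over genes tested were those of chromosomes 13 (-0.33), 14 (-0.29), 1 (-0.24) and 18 (-0.23). Among the 64 raised contractile genes 6 lie on chromosome 10, and of the genes named above so do the raised Stac3, Trdn, Mybpc1, Myl6b, Lama2, Col6a1 and Col6a2 and the lowered Rspo3, Plagl1 and Perp. Tspan8 and Tph2, with log2 fold changes of 5.76 and 6.16 (adjusted p 2.48e-05 and 3.03e-05), were among the largest rises and lie there too. Another of the largest, the olfactory receptor gene Olfr1259 on chromosome 2, was at most 0.220 CPM in Ctrl and 3.89 to 12.3 CPM in SMYD3 CL5 (log2 fold change 5.82, adjusted p 0.000254). The number of copies of any chromosome was not measured.

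**Figure D5:**
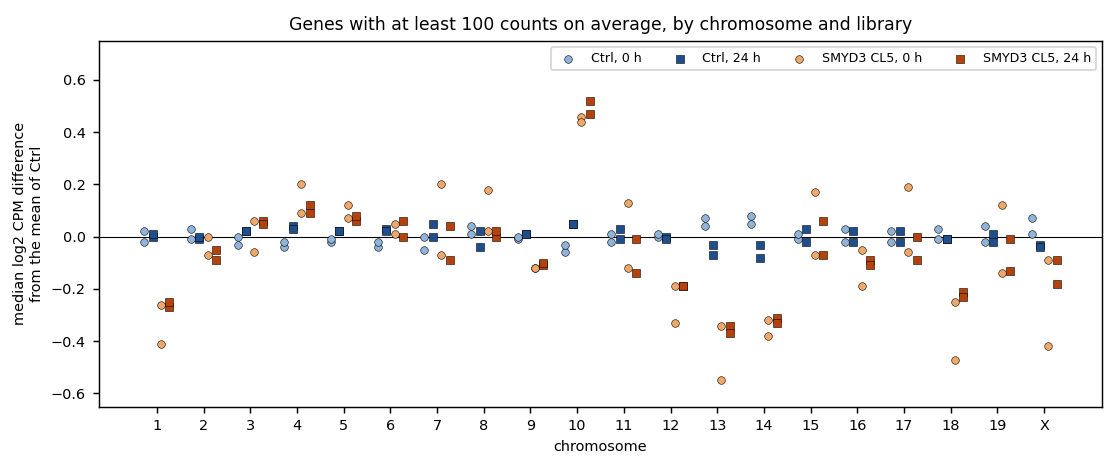
For each chromosome, points give the median over genes with at least 100 counts on average of the log2 CPM difference from the mean of the Ctrl libraries, 1 point per library, with Ctrl in blue, SMYD3 CL5 in orange, circles for 0 h and squares for 24 h. On chromosome 10 the 4 SMYD3 CL5 libraries lie between 0.44 and 0.52 and the Ctrl libraries between -0.06 and 0.05.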

How the data were processed

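The authors sequenced TruSeq stranded mRNA libraries on a NextSeq 500 as paired 75-base reads, aligned them to GRCm38 with HISAT2 2.1.0 and deposited raw counts per gene from featureCounts (Subread 1.6.3), after quality checks with FastQC 0.11.5. The strand setting, the annotation release and the treatment of reads with several matches are not given in the sources used here. Whole-number counts of 55341 genes were used as deposited. Symbols and positions were from GENCODE M21 for 54495 of them, and the other 846 kept their identifier.

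Groups were taken from the sample labels. Genes passed filterByExpr, libraries were scaled by TMM, and edgeR 4.0.16 (R 4.3.3) fitted time and line in its quasi-likelihood test (17835 genes), or the 4 groups for single times and the difference between them, with Benjamini-Hochberg adjustment and the study's threshold of 0.01. The common dispersion was 0.0835 and 0.0903. A rise or fall in the text passed this test. Levels in CPM used library sizes after TMM scaling, and in the closing parts a log2 fold change is SMYD3 CL5 over Ctrl. DESeq2 1.42.0 and limma 3.58.1 were alternatives, beside other scalings, filters, thresholds and fits without each library. The scripts were tested on simulated counts.

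The comparison and the 41 gene lists (851 symbols) were chosen with earlier results of these data known. Named genes were Smyd3, up to 12 of the largest rises and of the largest falls with at least 100 counts on average and no overlap of the lines, in each list up to 4 called genes per direction with the smallest p or, with none called, the 2 smallest, the genes the study measured by qPCR in this clone, and genes with the smallest p for the difference between times; a few of these at low levels are not printed, and a few other results are not reported here. The siCtrl comparison, the chromosome windows, the check of the 24 h choice at 0 h and the promoter motifs were added after the data were seen. Of 153 genes the rule named, 50 share exon bases with another gene, 10 on the same strand (in the text Tgfbr3, Pcsk6, Slpi, Serpinb2, Col3a1, Tnni3 and H19) and 42 on the opposite strand (Ckm, Mb, Ryr1, Ryr3, Myh7 and others), so their counts can hold reads of that gene. The RefSeq starts of Mylpf, Ckm and Serpine2 lie 2718, 6318 and 2515 bases from the gene's outermost start in GENCODE. Columns of the authors' own comparisons were not in the count files.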

Additional observations from a re-analysis of the deposited data

How the results depend on the processing

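Counts of genes over both times, at 0 h, at 24 h and for the difference between times were 1009, 191, 172 and 0. They became 2268, 1041, 880 and 2 with DESeq2, 2357, 1246, 1032 and 12 with no filter on low counts, and 3433, 1995, 1334 and 0 with all 26 libraries in 1 fit. They became 2213, 716, 596 and 0 at an adjusted p of 0.05, and 530, 109, 100 and 0 when genes under 100 counts on average were left out, so that fewer genes were tested. With only the 4 libraries of that time, 0 genes passed at 0 h and 349 at 24 h. RLE and upper-quartile scaling, limma-voom, a call that also asked for a doubling or halving, and the mean of both contrasts moved each count by less than 1.5 times. Leaving out 1 library gave 454 to 1766 genes over both times, 0 to 2369 at 0 h, 0 to 708 at 24 h and 0 for the difference. A lone library was then assumed to vary like the other groups. The raised share of the calls was 52.3%, and 48.6% to 58.2% under the other scalings, tests and the fit with no filter, and no scaling moved the median of all genes by more than 0.075. Of 132 called genes named in the text, 82 kept the call under every alternative in which they were tested, 0 changed sign, and 50 lost the call without some 1 library, among them Myog, Myod1, Ckm, Tnnc1, Mymx, Col1a1 (adjusted p up to 0.0105) and Vcan (up to 0.0141). That number was 35 to 44 without any 1 Ctrl library, 30 and 31 without SMYD3 CL5 replicates 1 and 2 at 24 h, 3 without replicate 1 at 0 h and 0 without replicate 2 at 0 h. Rgma, which did not pass at -0.13, ranged from -0.35 to 0.09 without 1 library, with 0.06, 0.08 and 0.09 when Ctrl replicate 2, SMYD3 CL5 replicate 1 or SMYD3 CL5 replicate 2 at 24 h was left out. The causes were not tested.

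A replicate block gave counts of 1103, 231, 228 and 0. The labels give no replicate number, and samples of 1 number deviated together for SMYD3 CL5 at 0 h and 24 h (r = 0.483 across genes) and not for the other pairs of groups (-0.0973 to 0.176), so the numbers were not taken as a pairing. Depth limits genes near 0 counts, whose fold changes are given as bounds or counting intervals.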

Other observations

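3 gene families, picked after their values were seen and therefore given as descriptions, differed between the lines and are in none of the lists above. Over all genes tested 2.96% were raised and 2.7% lowered. Of 8 Hoxb genes tested, which set position along the body axis, 6 were raised (Hoxb3, Hoxb5, Hoxb6, Hoxb7, Hoxb8 and Hoxb9) (median log2 fold change 3.86). All 8 had every SMYD3 CL5 library above every Ctrl library, against 9.43% of all genes tested. Hoxb6 was 0.502, 0.438, 0.709 and 0.491 CPM in Ctrl and 9.36, 9.40, 7.03 and 8.84 CPM in SMYD3 CL5, and was about as high at 0 h as at 24 h. In the other clusters 1 of 11 Hoxa genes was raised, Hoxa5, and 0 of 9 Hoxc genes, and the difference between clusters was not tested.

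Of 4 proliferins tested, hormones of the prolactin family that growing cells secrete, 3 were lowered (Prl2c2, Prl2c3 and Prl2c5), with a median of -4.40. Prl2c3 was 201, 166, 129 and 161 CPM in Ctrl and 9.94, 9.40, 13.4 and 5.80 CPM in SMYD3 CL5. All 5 genes of the complement proteases C1r and C1s were raised (C1ra, C1rb, C1rl, C1s1 and C1s2), with a median of 2.34, and C1s1 went from 3.21 to 9.44 CPM in Ctrl to 45.1 to 168 CPM in SMYD3 CL5. Proliferins, and C1ra with C1rb and C1s1 with C1s2, are near copies of each other, so that the split of their reads is uncertain.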
